A study of Mus musculus with 143 samples.

Results

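Amino acid transporters were followed through 71 poly(A) and 48 RiboMinus RNA libraries of single mouse oocytes, which were controls or lacked the RNA exosome ribonucleases DIS3 or EXOSC10, or both. The members were 10 genes chosen by name: Slc7a1, Slc7a5, Slc7a6, Slc7a8, Slc7a11, Slc3a2, Slc6a9, Slc6a15, Slc38a2 and Slc1a5. They were 10 of 55573 genes in the poly(A) count files and of 55487 in the RiboMinus count files, and each matched 1 gene identifier. Slc7a1 and Slc6a15 were on the list because low knockout values had already been seen in these libraries, so their knockout values are given as a description and were not tested. The other 8 members were tested, with the adjustment made over all genes.

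Poly(A) RNA was sequenced from germinal vesicle oocytes (GV, of an age that is not given, arrested in prophase of meiosis), from oocytes cultured for 3 h (GV3h) and from ovulated eggs at metaphase II (MII). At each of these stages the genotypes were control, with 8 oocytes, and Dis3 conditional knockout (cKO), with 15 oocytes at GV and 16 at both GV3h and MII. RiboMinus RNA, which keeps transcripts with and without a poly(A) tail, was sequenced from adult GV oocytes (control and Dis3 cKO) and from oocytes of mice at postnatal day 20 (p20), which were control, lacked Dis3 or Exosc10 alone, or lacked both (dcKO), with 8 oocytes in each group. CUT&Tag peak lists for H3K27me3 and RNA polymerase II came from pooled oocytes, 3 libraries a group. The polymerase libraries are titled pols2s5, which points to a form phosphorylated on serines and not to all polymerase. Mutant mice were made with CRISPR/Cas9, and GV and GV3h oocytes were kept in M2 medium, whereas MII eggs came from superovulated females. Neither the driver of the deletion nor the alleles of the controls are given in the sources used here. Each library was 1 oocyte, the number of females behind a group is not given, and p-values therefore measure the spread between oocytes. RiboMinus titles carry a tag that splits each group into 2 sets of 4 oocytes (AM1758 and AM1759 in adult controls, AM1713 and AM1757 in adult Dis3 cKO, 1 and 2 at p20), and the meaning of the tag is not given.

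Counts assigned to genes ran from 4843964 to 15412200 a library in the poly(A) set and from 8492102 to 35429028 in the RiboMinus set. The targeted genes went with the labels: the mean Dis3 level was 13.1 CPM (counts scaled to an equal library size) in control GV oocytes and 2.88 in Dis3 cKO, 9.70 and 0.760 at MII, and 15.9 and 1.79 in adult RiboMinus libraries. In p20 oocytes Dis3 averaged 13.6 CPM in controls, 2.02 in Dis3 cKO and 2.83 in dcKO, and Exosc10 averaged 117 CPM in controls, 3.13 in Exosc10 cKO and 7.26 in dcKO. All 10 oocyte markers (among them Zp3, Gdf9 and Nlrp5) were detected in every group. With TMM scaling 1 of the 10 in adult Dis3 cKO was higher and 7 were lower (80% called, against 28.1% of all genes), at MII 6 were higher and 0 lower (60% against 42.1%), and in the dcKO 5 were higher and 2 lower (70% against 53.7%). At GV and GV3h 1 of 10 was lower (10% against 21.9% and 38.6%). At p20 Exosc10 cKO had 0 higher and 3 lower (30% against 7.45%), and Dis3 cKO 1 higher and 0 lower (10% against 7.37%). Summed over 14 granulosa and cumulus markers, libraries held 38.7 to 184.9 CPM, most of it from Nr5a2 and Cyp19a1, and between 1 and 5 of the 14 genes were at 0 in every library of a group (Ptx3 in 11 of the 12 groups). The summed level overlapped between knockout and control at every stage. Of single markers in this list, 10 could be tested in Dis3 cKO. At GV 0 were higher and 2 lower (20% called, against 21.9% of all genes), at GV3h 1 and 1 (20% against 38.6%), and at MII 1 and 5 (60% against 42.1%). Their median log2 fold changes were -0.96, 0.87 and -1.09 against 0.04, 0.07 and 0.16 over all genes. In adult Dis3 cKO 1 of 10 was higher and 0 lower (10% against 28.1%). At p20 9 could be tested, of which 1 was higher and 0 lower in Dis3 cKO (11.1% against 7.37%), 0 and 0 in Exosc10 cKO (0% against 7.45%), and 1 and 2 in the dcKO (33.3% against 53.7%). Of the main contributors, Nr5a2 rose in adult Dis3 cKO, with a log2 fold change of 0.40, and in the dcKO, with 0.55 (adjusted p = 0.0149 and 0.000205), and at GV it gave 0.13 (adjusted p = 0.58). Cyp19a1 fell in Dis3 cKO by 1.35 at GV, 1.95 at GV3h and 1.23 at MII (adjusted p = 2.78e-07, 1.69e-12 and 5.07e-07), and by 2.61 in the dcKO (adjusted p = 1.31e-08, edgeR's quasi-likelihood test). Of 6 blood and stroma markers, of which 4 or 5 had a median under 1 CPM in each group, 2 could be tested. Pecam1, an endothelial adhesion molecule, fell in Dis3 cKO by 1.02 at GV, 0.92 at GV3h and 0.54 at MII (adjusted p = 3.09e-06, 9.87e-06 and 0.0082), and by 0.93 in the dcKO (adjusted p = 1.69e-08, edgeR's quasi-likelihood test). The other testable marker, Pdgfra, did not pass in any of these, with values of 1.96, 0.19, 1.52 and 0.20 (adjusted p = 0.196, 0.886, 0.185 and 0.794). Whether the oocyte, granulosa or blood and stroma markers bear on the transporters was not tested.

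Amino acid transporters of the solute carrier (SLC) families move amino acids across the plasma membrane, some with sodium and some in exchange for another amino acid. Several SLC7 proteins reach the membrane only as the light chain of a heterodimer whose heavy chain is SLC3A2, whereas SLC7A1 works alone. A growing oocyte takes up some amino acids with its own carriers and receives others from the surrounding cumulus cells through gap junctions, and glycine uptake helps it to control its volume after it is released from meiotic arrest.

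Slc7a1 encodes CAT-1, a sodium-independent carrier of arginine, lysine and ornithine, and it was the member with the lowest knockout values relative to control in the poly(A) and adult RiboMinus sets. The gene lies at chr5:148327410-148399904 (GRCm38.p6). RefSeq gives it more than 1 start, and the promoters are shown because the peak lists below were read at these positions. Each runs from 250 bases before to 50 bases after the start, 5′ to 3′ on the minus strand. In the upstream promoter, chr5:148399855-148400154, capitals mark CG dinucleotides, and in the downstream one, chr5:148392766-148393065, they mark a TATAAA match 28 bases before the start.
Slc7a1 upstream start: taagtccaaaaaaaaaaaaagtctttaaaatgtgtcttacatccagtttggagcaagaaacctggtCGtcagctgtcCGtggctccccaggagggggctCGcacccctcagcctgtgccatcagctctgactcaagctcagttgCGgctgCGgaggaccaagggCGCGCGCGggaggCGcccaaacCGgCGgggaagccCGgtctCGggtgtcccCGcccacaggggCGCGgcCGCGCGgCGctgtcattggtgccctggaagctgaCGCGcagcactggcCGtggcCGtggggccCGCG
Slc7a1 downstream start: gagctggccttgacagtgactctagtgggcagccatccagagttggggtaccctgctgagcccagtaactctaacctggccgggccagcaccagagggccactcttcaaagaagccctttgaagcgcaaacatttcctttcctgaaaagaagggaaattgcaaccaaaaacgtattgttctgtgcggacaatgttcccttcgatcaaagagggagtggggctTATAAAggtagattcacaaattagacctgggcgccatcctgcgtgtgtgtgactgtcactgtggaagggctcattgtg
The upstream promoter was 65.0% G or C with 27 CG dinucleotides, against a median of 52.7% and 7 over 32841 RefSeq promoters of the same length. The downstream promoter was 51.7% G or C with 7 CG dinucleotides, and TATAAA on either strand was found in 13.6% of all promoters and in 1 of the 11 member promoters.

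In control GV oocytes Slc7a1 ranged from 34.8 to 49.0 CPM with a median of 43.8 (42.9 ± 5.01, mean ± SD, n = 8), and in Dis3 cKO from 2.73 to 25.3 with a median of 6.16 (8.57 ± 6.12, n = 15). After 3 h of culture the controls ranged from 57.7 to 78.9 CPM with a median of 68.8, and Dis3 cKO from 3.09 to 14.6 with a median of 7.75. At MII the controls ranged from 43.3 to 102.8 CPM with a median of 68.9, and Dis3 cKO from 0 to 12.03 with a median of 6.01, with 1 library at 0. In all 3 stages every knockout library was below every control library. The control mean was 5.00 times the knockout mean at GV, 8.13 times at GV3h and 12.5 times at MII. The fitted log2 fold changes of Slc7a1 were -2.32 (SE 0.32), -3.02 (SE 0.31) and -3.64 (SE 0.32), and leaving out any 1 library kept them between -2.54 and -2.26, between -3.09 and -2.96, and between -3.75 and -3.55. The MII library at 0 (Dis3 cKO 15) held 14.4 gene counts per spike-in count, against 48.6 to 81.0 in the other 15 of its group, and without it the Slc7a1 value was -3.55. Without that library Slc7a5, Slc7a8 and Slc7a11 kept their calls at MII, with -0.70, -1.36 and -0.54 (adjusted p = 0.00433, 0.00212 and 3.84e-05, edgeR's quasi-likelihood test). The difference between the MII and GV values was -1.32 (SE 0.47) and that between GV3h and GV was -0.69 (SE 0.46). With spike-in scaling they were -0.62 (SE 0.53) and -0.33 (SE 0.53), where the median of all genes in these differences moved from 0.07 to 0.68 and from 0.02 to 0.27.

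In adult RiboMinus libraries, where RNA without a poly(A) tail is also counted, control oocytes held 76.2 to 113.5 CPM of Slc7a1, with a median of 86.6, and Dis3 cKO oocytes 8.02 to 25.0, with a median of 12.6. The groups did not overlap, the control mean was 6.42 times the knockout mean, and the log2 fold change of Slc7a1 was -2.66 (SE 0.21). The 4 knockout oocytes tagged AM1713 averaged 9.54 CPM (8.02 to 11.8) and the 4 tagged AM1757 averaged 19.0 (13.4 to 25.0), so the tags did not overlap with each other and both lay under the controls.

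At p20 the pattern was different, with Slc7a1 nearer to control in the single knockouts than in adult Dis3 cKO. Controls ranged from 66.5 to 86.8 CPM (79.9 ± 9.07, n = 8), Dis3 cKO from 56.8 to 94.2 (69.3 ± 12.4) and Exosc10 cKO from 53.0 to 88.9 (76.2 ± 11.3). Both single knockouts overlapped with the controls. Of 8 libraries, 4 in Dis3 cKO and 1 in Exosc10 cKO were below every control, and 1 in each was above every control. In the dcKO the range was 34.8 to 62.0 CPM (47.5 ± 9.98), below every control, and the control mean was 1.68 times the dcKO mean. The log2 fold changes of Slc7a1 against the shared p20 controls were -0.20 (SE 0.12) in Dis3 cKO, -0.07 (SE 0.12) in Exosc10 cKO and -0.74 (SE 0.12) in dcKO. The adult minus p20 difference of the Dis3 cKO values was -2.47 (SE 0.23) on the log2 scale. Age cannot be told apart in this difference from anything else that differed between the adult and p20 groups. The labels give neither a day of collection nor the sets of mice.

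**Figure D1:**
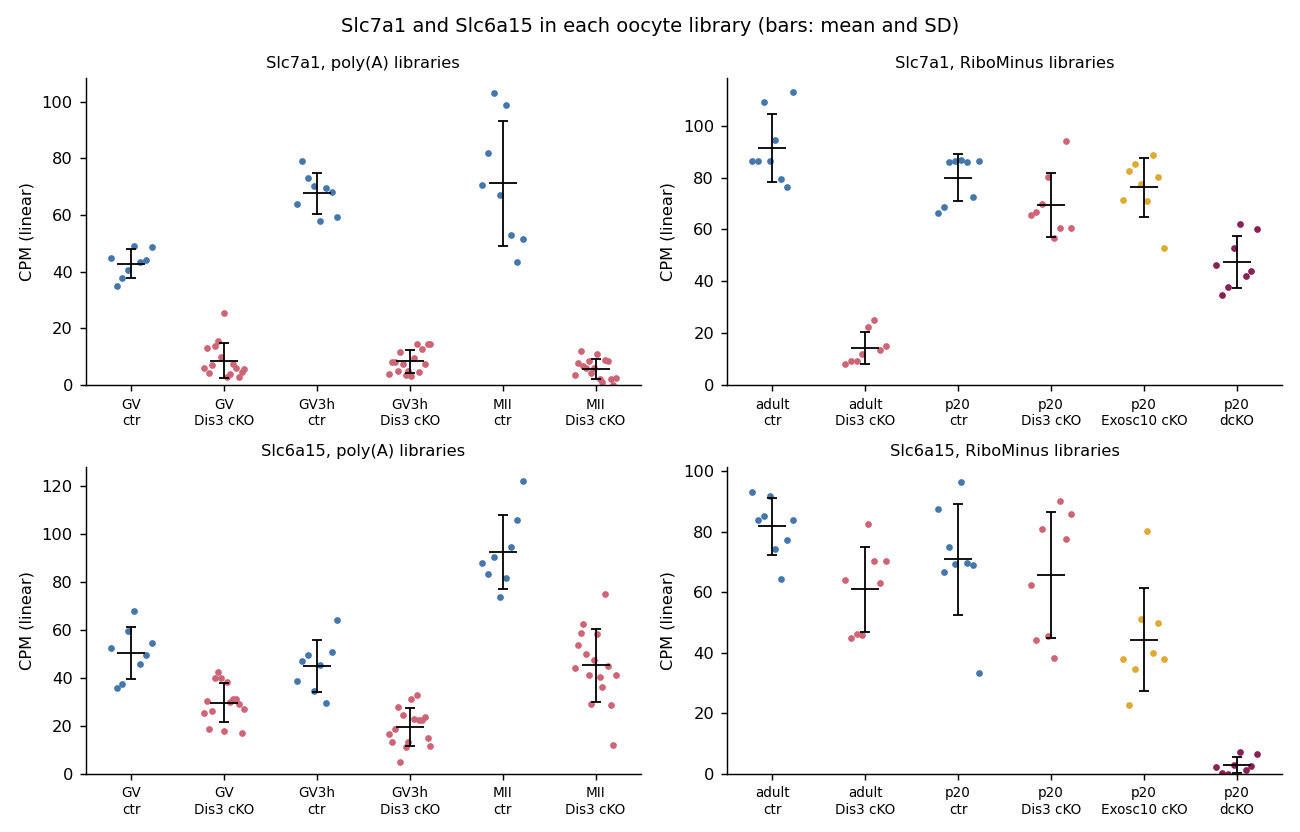
Slc7a1 (upper panels) and Slc6a15 (lower panels) in every poly(A) and RiboMinus library, in CPM on the vertical axis, with 1 point per oocyte and bars for the mean ± SD. Dis3 cKO oocytes sit below all controls for Slc7a1 at GV, GV3h, MII and adult GV, and the dcKO oocytes sit near 0 for Slc6a15.

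Changes of Slc7a1 between control groups were tested. The same control libraries were the reference in the knockout comparisons by which it was chosen, so these tests are not independent of the choice. Its mean was 42.9 CPM at GV, 67.6 at GV3h and 71.1 at MII. Neither step passed edgeR's quasi-likelihood test: GV3h against GV had a log2 fold change of 0.66 (SE 0.37, adjusted p = 0.39) and MII against GV 0.73 (SE 0.37, adjusted p = 0.084). Fitted on the compared control groups alone, both steps of Slc7a1 passed, with 0.66 (adjusted p = 0.000218) and 0.79 (adjusted p = 0.000403). Adult GV against p20 controls gave 0.19 (SE 0.16, adjusted p = 0.42, n = 8 and 8 oocytes in edgeR's quasi-likelihood test). With spike-in scaling Slc7a1 was called lower in adult than in p20 controls, where the median gene was at -1.69. It was also called lower at MII than at GV, where the median gene was at -2.12.

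Slc6a15 encodes a sodium-dependent carrier of neutral amino acids, branched-chain ones and proline among them. It lies at chr10:103367808-103419379 and overlaps the RefSeq gene 6430590A10Rik, and since strand use in the counting is not given, reads of the overlapping genes cannot be told apart. Its lowest values were in the p20 dcKO. Control oocytes at p20 ranged from 33.4 to 96.6 CPM with a median of 69.5, Dis3 cKO from 38.2 to 90.2 with a median of 70.1, and Exosc10 cKO from 22.8 to 80.3 with a median of 38.9. The dcKO oocytes ranged from 0 to 7.12 CPM with a median of 2.46 and 1 library at 0, all below every control. The control mean was 25.0 times the dcKO mean. The log2 fold changes of Slc6a15 against the p20 controls were -0.10 (SE 0.35) in Dis3 cKO, -0.68 (SE 0.35) in Exosc10 cKO and -4.64 (SE 0.42) in dcKO, and the last stayed between -5.03 and -4.46 when any 1 library was left out. The oocytes of dcKO tag 1 averaged 1.32 CPM and those of tag 2 averaged 4.36.

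In the poly(A) and adult RiboMinus sets Slc6a15 was lower in Dis3 cKO by a smaller factor than Slc7a1. Control GV oocytes ranged from 35.7 to 67.7 CPM with a median of 51.0, and Dis3 cKO from 17.1 to 42.6 with a median of 30.0. The GV3h medians were 46.3 and 20.4 CPM, and the MII medians were 89.3 and 44.4. Knockout and control overlapped at all 3 stages, although 11 of 15, 14 of 16 and 15 of 16 knockout libraries were below every control. The log2 fold changes of Slc6a15 were -0.76 (SE 0.20) at GV, -1.20 (SE 0.20) at GV3h, -1.03 (SE 0.20) at MII and -0.40 (SE 0.12) in adult RiboMinus libraries, where the control mean was 81.8 ± 9.51 CPM and the knockout mean 60.9 ± 13.9. Control MII eggs held more Slc6a15 than control GV oocytes, 92.4 ± 15.3 against 50.4 ± 10.7 CPM, a log2 fold change of 0.88 (SE 0.23, adjusted p = 0.00093, edgeR's quasi-likelihood test). The same controls were the reference when Slc6a15 was chosen, so this test of a stage difference is not independent of the choice.

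That stage difference depends on what a level is measured against. MII libraries held less gene RNA per ERCC spike-in read than GV libraries, 46.0 ± 3.43 gene counts per spike-in count against 137 ± 16.2 in controls. With spike-in scaling the median gene moved from -0.27 to -2.12 on the log2 scale between MII and GV controls, and Slc6a15 had a log2 fold change of -0.98 in place of 0.88 and Slc7a1 -1.12 in place of 0.73.

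The heteromeric carriers share the heavy chain Slc3a2 (CD98hc). Their light chains in the list are Slc7a11 (xCT, which takes up cystine in exchange for glutamate), Slc7a5 and Slc7a8 (LAT1 and LAT2, carriers of large neutral amino acids) and Slc7a6 (y+LAT2, which exchanges cationic for neutral amino acids). Of the 8 members tested against control, 7 had enough reads for a test at the poly(A) stages. EdgeR's quasi-likelihood test called 0 of the 7 at GV, where 21.9% of all genes tested were called (13.6% higher and 8.33% lower). At GV 1 had an unadjusted p under 0.05, and DESeq2 called that 1, Slc7a8. At GV3h 2 were higher and 2 lower, with 38.6% of all genes called (22.9% higher and 15.7% lower), and at MII 3 were lower, with 42.1% called (27.3% and 14.8%). In adult RiboMinus libraries 6 could be tested, of which 1 was higher and 4 lower, with 28.1% of all genes called (15.7% and 12.4%).

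Slc7a11 lies on the minus strand at chr3:50364936-50499087. Its promoter at chr3:50443564-50443863 is shown because it was the only 1 of the 11 member promoters with a match to TGATGNAA, the core of the response element bound by C/EBP and ATF factors in amino acid deprivation. Capitals mark the matches, TGATGCAA 66 bases before the start on the strand shown and TTGCATCA 47 bases before it, which is TGATGCAA on the other strand.
Slc7a11 start: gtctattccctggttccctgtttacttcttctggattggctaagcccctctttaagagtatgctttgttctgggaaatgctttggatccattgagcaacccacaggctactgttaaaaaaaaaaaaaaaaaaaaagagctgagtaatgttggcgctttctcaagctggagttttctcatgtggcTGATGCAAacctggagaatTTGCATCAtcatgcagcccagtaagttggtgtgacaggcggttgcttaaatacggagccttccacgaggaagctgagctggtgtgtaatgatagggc
A match on either strand was found in 3.97% of the 32841 promoters, and the matches at Slc7a11 are letters in this window and no measure of binding.

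In the poly(A) set Slc7a11 fell in Dis3 cKO at GV3h and MII. At GV the controls ranged from 367 to 605 CPM with a median of 425.0, and the knockouts from 275 to 520.3 with a median of 425.1, so the groups overlapped. At GV3h the controls ranged from 385 to 461 CPM with a median of 426.0 and the knockouts from 190.3 to 366 with a median of 314, with all 16 knockouts below every control. At MII the range was 381 to 594 CPM with a median of 483 in controls and 230.4 to 439 with a median of 342 in knockouts, of which 13 of 16 were below every control. EdgeR's quasi-likelihood test gave Slc7a11 log2 fold changes of -0.12 (SE 0.11, adjusted p = 0.52), -0.52 (SE 0.11, adjusted p = 8.4e-05) and -0.56 (SE 0.11, adjusted p = 2.3e-05) at GV, GV3h and MII. The MII value differed from the GV value by -0.45 (SE 0.16, adjusted p = 0.049 in the interaction term), and with spike-in scaling, which raised the median of all genes in this difference from 0.07 to 0.68, it was 0.20. The MII value of Slc7a11 itself was -0.18 (adjusted p = 0.448) with spike-in scaling, under which the median gene at MII moved from 0.16 to 0.52.

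In adult RiboMinus oocytes Slc7a11 averaged 768 ± 57.3 CPM in controls (671 to 819.7) and 572 ± 94.2 in Dis3 cKO (445 to 692), with 6 of 8 knockouts below every control. The log2 fold change was -0.40 (SE 0.08, adjusted p = 0.0014, edgeR's quasi-likelihood test). The knockout oocytes tagged AM1713 averaged 497 CPM and those tagged AM1757 averaged 648, both under the 749.8 and 787 of the control tags. At p20 Slc7a11 stood at 856 ± 132 CPM in controls, 909.5 ± 134 in Dis3 cKO and 823 ± 144 in Exosc10 cKO. In the dcKO it fell to 389 ± 97.4 CPM (276 to 538), with all 8 libraries below every control. EdgeR's quasi-likelihood test against control gave 0.09 (adjusted p = 0.75) in Dis3 cKO, -0.06 (adjusted p = 0.85) in Exosc10 cKO and -1.13 (SE 0.13, adjusted p = 9.6e-09) in dcKO. The dcKO minus Dis3 cKO difference was -1.22 (adjusted p = 2.3e-09), and the dcKO minus Exosc10 cKO difference was -1.07 (adjusted p = 4e-08). The Slc7a11 change in adult Dis3 cKO differed from that at p20 by -0.51 (SE 0.17, adjusted p = 0.042), which missed the threshold with no filter on low counts (adjusted p = 0.0536).

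Slc7a5 fell in Dis3 cKO at MII and in adult GV, and rose in the p20 dcKO. At MII it ranged from 13.7 to 31.9 CPM in controls with a median of 17.98 and from 5.02 to 28.0 in Dis3 cKO with a median of 10.5, and 13 of 16 knockouts were below every control. In adult RiboMinus libraries the range was 56.5 to 86.8 CPM in controls and 40.8 to 62.8 in Dis3 cKO, with 7 of 8 knockouts below every control. At p20 the controls ranged from 54.2 to 73.3 CPM and the dcKO from 66.5 to 97.7, with 4 of 8 dcKO libraries above every control. EdgeR's quasi-likelihood test gave Slc7a5 log2 fold changes of -0.74 (SE 0.21, adjusted p = 0.0028) at MII, -0.56 (SE 0.10, adjusted p = 3e-04) in adult GV and 0.42 (SE 0.12, adjusted p = 0.0035) in dcKO. GV and GV3h gave 0.21 (adjusted p = 0.55) and -0.32 (adjusted p = 0.22). The difference between MII and GV was -0.95 (SE 0.30, adjusted p = 0.026), and that between adult and p20 Dis3 cKO was -0.53 (SE 0.16, adjusted p = 0.026). The former was -0.97 (adjusted p = 0.0593) with only the compared groups in the fit, and the latter -0.52 (adjusted p = 0.0502) with no filter on low counts. With spike-in scaling Slc7a5 gave -0.30 (adjusted p = 0.438) at MII and 0.31 (adjusted p = 0.268) in dcKO. The dcKO exceeded Dis3 cKO in Slc7a5 by 0.47 (adjusted p = 0.0014) and Exosc10 cKO by 0.52 (adjusted p = 0.00045, or 0.163 with spike-in scaling).

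Slc7a6, a light chain with low counts, rose in the cultured Dis3 cKO oocytes and in the dcKO. At GV3h it ranged from 1.29 to 4.10 CPM in controls with a median of 1.97 and from 1.82 to 10.9 in Dis3 cKO with a median of 5.46, and 10 of 16 knockouts were above every control. The log2 fold change was 1.42 (SE 0.35, adjusted p = 0.00088, edgeR's quasi-likelihood test), against -0.35 (adjusted p = 0.50) at GV, and the difference between the stages was 1.77 (SE 0.48, adjusted p = 0.031). MII and adult Dis3 cKO gave -0.03 (adjusted p = 0.96) and 0.23 (adjusted p = 0.58). Controls averaged 4.77 CPM of Slc7a6 at GV and 2.25 at GV3h, a change of -1.08 (SE 0.39, adjusted p = 0.12). With only the compared groups in the fit this control change was called. At p20 Slc7a6 ranged from 1.11 to 5.42 CPM in controls, 1.51 to 6.37 in Dis3 cKO, 1.63 to 6.74 in Exosc10 cKO and 5.14 to 10.2 in dcKO. In the dcKO 7 of 8 libraries were above every control. Against control the values of Slc7a6 were 0.41 (adjusted p = 0.57) in Dis3 cKO, 1.05 (adjusted p = 0.059) in Exosc10 cKO and 1.71 (SE 0.35, adjusted p = 0.00012) in dcKO, by the same test. Leaving out 1 of 3 libraries brought Slc7a6 in Exosc10 cKO under the threshold, as low as adjusted p = 0.0058, and these were the control of tag 2 with the highest level and Exosc10 cKO oocytes 1 and 3 of tag 2.

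Slc7a8 fell in adult Dis3 cKO and at MII. In the poly(A) set its counts were low too, with means of 5.75 CPM in MII controls and 2.64 in MII Dis3 cKO. Adult RiboMinus controls ranged from 12.4 to 35.4 CPM with a median of 21.2 and knockouts from 2.24 to 10.5 with a median of 6.88, so the groups did not overlap. The log2 fold change was -1.67 (SE 0.26, adjusted p = 1e-04, edgeR's quasi-likelihood test). At MII the medians were 4.24 and 2.15 CPM and the groups overlapped, with a log2 fold change of -1.12 (SE 0.38, adjusted p = 0.014), and leaving out control egg 7 or control egg 8 took the adjusted p of Slc7a8 as high as 0.0919. With spike-in scaling it was -0.90 (adjusted p = 0.0576) and with only the MII groups in the fit -1.15 (adjusted p = 0.0798). At GV the value was -0.99 (SE 0.39, adjusted p = 0.059) and passed the threshold when any 1 of 4 libraries was left out (control 2 or knockout 1, 6 or 8), down to 0.0283. GV3h showed no fall of Slc7a8, with 0.04 (SE 0.39, adjusted p = 0.94) by the same test.

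At p20 Slc7a8 differed between title tags in the controls and in Exosc10 cKO. The 4 controls of tag 1 averaged 39.4 ± 2.95 CPM and the 4 of tag 2 averaged 18.4 ± 3.52. In Exosc10 cKO the oocytes of tag 1 held 0.366, 0.743, 0.917 and 3.75 CPM of Slc7a8 and those of tag 2 held 24.2, 15.9, 15.6 and 37.1, so the tags did not overlap. In dcKO the tags averaged 10.6 and 16.6 CPM, and in Dis3 cKO 17.0 and 13.1. None of the p20 knockouts passed edgeR's quasi-likelihood test for Slc7a8, with log2 fold changes of -0.94 (adjusted p = 0.32) in Dis3 cKO, -1.24 (adjusted p = 0.15) in Exosc10 cKO and -1.08 (adjusted p = 0.079) in dcKO. Leaving out the Exosc10 cKO oocyte of tag 2 with the highest level gave -1.72 and an adjusted p of 0.039 in that knockout. With only the compared groups in the fit, Slc7a8 passed with -0.93 in Dis3 cKO (adjusted p = 0.0294) and with -1.06 in dcKO (adjusted p = 0.00109).

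**Figure D2:**
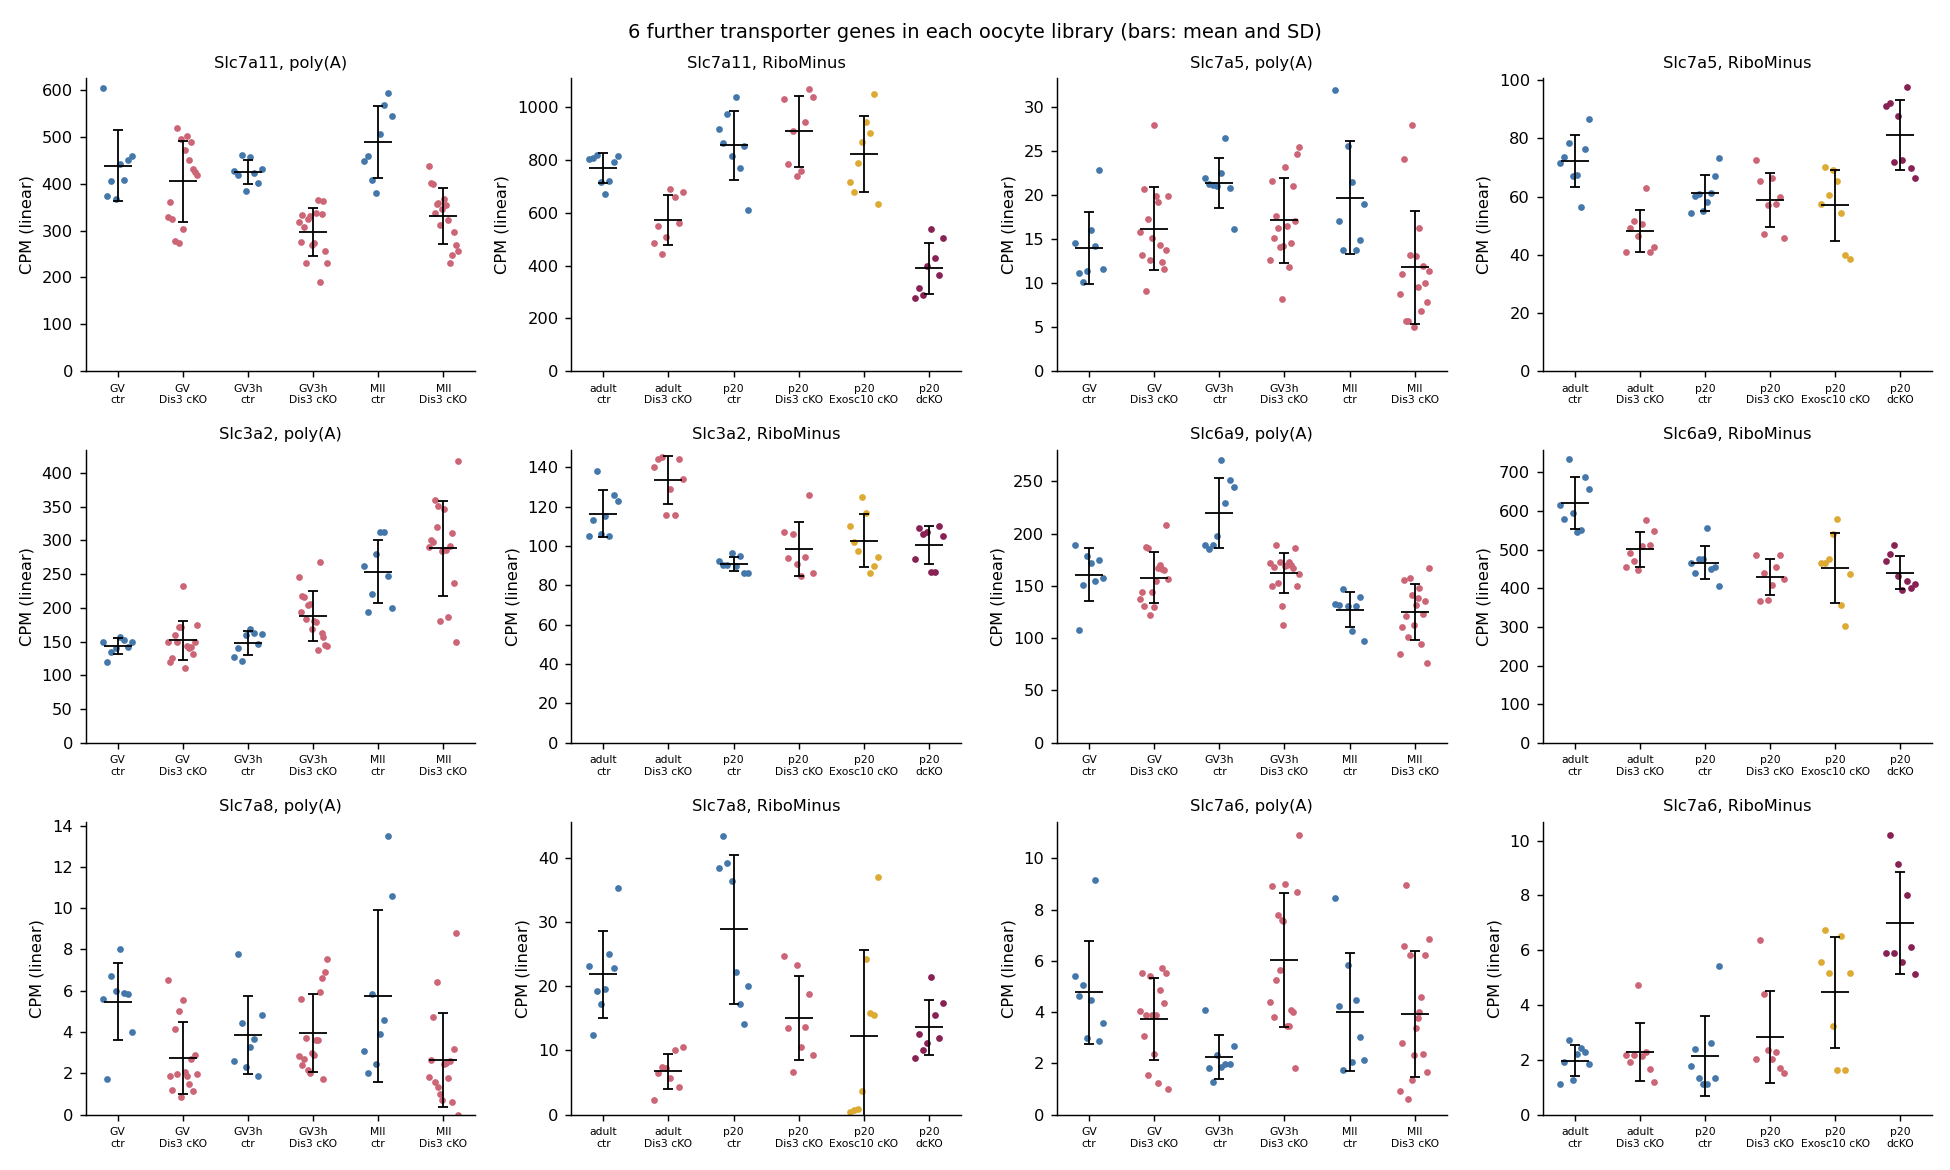
Levels of Slc7a11, Slc7a5, Slc3a2, Slc6a9, Slc7a8 and Slc7a6 in CPM (vertical axes) in every RNA library, by stage and genotype, with 1 point per oocyte and bars for the mean ± SD, cut at 0 for Slc7a8 in p20 Exosc10 cKO. Slc7a11 is lower in the dcKO than in any p20 control, and Slc7a8 in p20 Exosc10 cKO splits into low and high oocytes.

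Slc3a2, the heavy chain, was higher in Dis3 cKO where it passed the test. At GV3h it ranged from 121 to 169 CPM in controls with a median of 153 and from 137 to 268 in knockouts with a median of 182. In adult RiboMinus libraries the ranges were 105 to 138 CPM and 116 to 145, and knockout and control overlapped in both comparisons. EdgeR's quasi-likelihood test gave 0.34 (SE 0.12, adjusted p = 0.024) at GV3h and 0.22 (SE 0.08, adjusted p = 0.033) in adult GV. Leaving out control 1 or control 3 ended the Slc3a2 call at GV3h, with adjusted p up to 0.0593, and leaving out any of 9 of the 16 adult libraries (5 controls and 4 knockouts) ended the adult one, with adjusted p up to 0.0675. Spike-in scaling gave 0.28 (adjusted p = 0.297) at GV3h. With spike-in scaling the adult value was -0.30, where the median gene moved from 0.03 to -0.52. At p20 the values of Slc3a2 were 0.12, 0.17 and 0.16 in Dis3 cKO, Exosc10 cKO and dcKO, none of them past the threshold (adjusted p = 0.45, 0.23 and 0.11). With only the compared groups in the fit the dcKO value passed, at 0.17 (adjusted p = 0.0398).

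Between stages the heavy chain rose on the CPM scale. Control MII eggs held 254 ± 46.8 CPM of Slc3a2 against 143.0 ± 12.02 at GV, and every MII control was above every GV control. The log2 fold change was 0.83 (SE 0.14, adjusted p = 6.9e-07, edgeR's quasi-likelihood test) in controls and 0.93 (SE 0.10, adjusted p = 1.4e-12) in Dis3 cKO. With spike-in scaling, where the median gene was at -2.12 and -1.51, these values were -1.04 and -0.31. Adult GV controls exceeded p20 controls in Slc3a2, 116 ± 11.9 against 90.9 ± 3.68 CPM, by 0.36 (SE 0.08, adjusted p = 0.0012), a value that was -1.35 with spike-in scaling, where the median gene moved from -0.00 to -1.69.

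Slc6a9 encodes GLYT1, the glycine transporter known for volume control in oocytes. It lies at chr4:117835258-117869305 and overlaps Ccdc24, whose reads may not be separable from its own. Its second RefSeq promoter, chr4:117849100-117849399 on the plus strand, is shown with CG dinucleotides in capitals because RNA polymerase II peaks were found there most often.
Slc6a9 second start: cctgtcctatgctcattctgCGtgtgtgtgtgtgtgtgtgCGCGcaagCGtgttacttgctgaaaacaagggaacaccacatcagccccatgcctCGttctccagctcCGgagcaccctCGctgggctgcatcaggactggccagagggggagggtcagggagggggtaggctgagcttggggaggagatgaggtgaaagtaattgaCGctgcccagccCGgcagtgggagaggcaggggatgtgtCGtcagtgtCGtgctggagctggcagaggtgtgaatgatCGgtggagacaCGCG
This promoter was 60.7% G or C with 14 CG dinucleotides, above the medians of all promoters.

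Slc6a9 fell in Dis3 cKO at GV3h and in adult RiboMinus libraries. At GV3h the controls ranged from 185 to 270.3 CPM with a median of 214 and the knockouts from 113 to 189 with a median of 169, and 14 of 16 knockouts were below every control. The adult controls ranged from 546 to 736 CPM and the knockouts from 448 to 577, with 6 of 8 below every control. The log2 fold changes were -0.44 (SE 0.10, adjusted p = 0.00048, edgeR's quasi-likelihood test) and -0.29 (SE 0.07, adjusted p = 0.0041). GV and MII each gave -0.03 for Slc6a9 (adjusted p = 0.90 and 0.87), and the 3 knockouts at p20 lay between -0.11 and -0.04 with none past the threshold.

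The GV3h value of Slc6a9 stood beside a rise in controls. Control oocytes averaged 161 ± 25.1 CPM at GV, 219.6 ± 33.5 at GV3h and 127 ± 16.5 at MII, whereas Dis3 cKO oocytes averaged 158 ± 24.0, 162 ± 19.4 and 125 ± 26.8. The control rise from GV to GV3h was 0.45 (SE 0.12, adjusted p = 0.027, edgeR's quasi-likelihood test), and it was the 1 call among the 9 members tested in that comparison, in which 2.71% of all genes were called (1.14% higher and 1.56% lower). The knockout effect at GV3h differed from that at GV by -0.41 (SE 0.15), which did not pass the threshold (adjusted p = 0.14) unless only the compared groups were fitted (-0.43, adjusted p = 0.0452). With spike-in scaling the control rise of Slc6a9 was 0.71 and its adjusted p 0.14. From GV to MII Slc6a9 gave a log2 fold change of -0.34 in controls (adjusted p = 0.014) and in Dis3 cKO (adjusted p = 6e-04), and the control call was lost with no filter on low counts (-0.26, adjusted p = 0.131), with DESeq2 size factors in edgeR (-0.27, adjusted p = 0.0507) and with only the compared groups in the fit (-0.28, adjusted p = 0.0502). Adult controls exceeded p20 controls by 0.42 (SE 0.09, adjusted p = 0.00078), a value that was -1.28 with spike-in scaling.

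**Figure D3:**
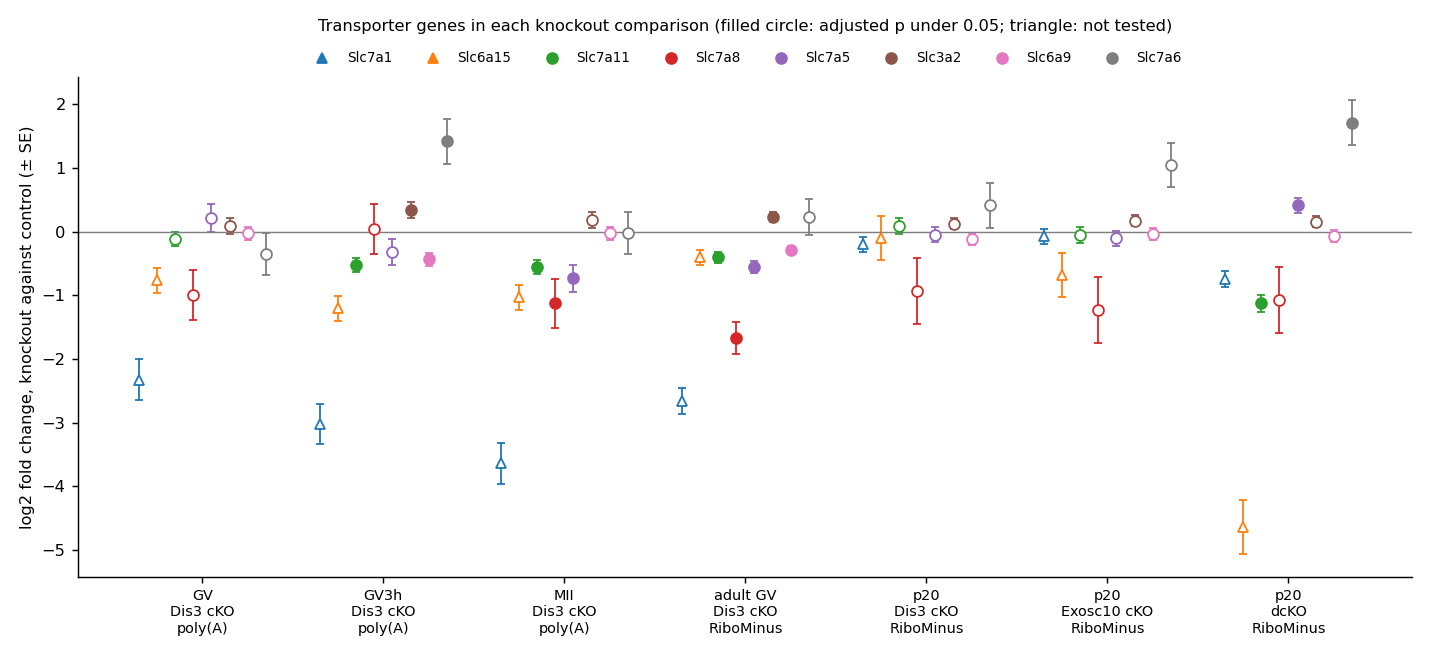
Log2 fold changes against control (vertical axis, ± SE) of 8 members with usable counts in the 7 knockout comparisons. Filled circles passed an adjusted p under 0.05 and triangles mark Slc7a1 and Slc6a15, which were not tested; Slc7a1 is lowest at GV, GV3h, MII and adult GV, and Slc6a15 in the dcKO.

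Slc38a2 (SNAT2) and Slc1a5 (ASCT2), sodium-dependent carriers of small neutral amino acids and glutamine, were at or near 0 in these oocytes. Group means of Slc38a2 ran from 0.0260 to 1.19 CPM and those of Slc1a5 from 0.0155 to 0.448 CPM. Slc38a2 was at 0 in 7 of 8 control libraries at GV3h and Slc1a5 in 7 of 8 control libraries at MII. With TMM scaling no comparison in which they had enough reads called either of them, at SEs of 0.83 to 1.62 on the log2 scale. With spike-in scaling edgeR's quasi-likelihood test called Slc38a2 lower at MII than at GV in Dis3 cKO, by -1.90 (adjusted p = 0.0356), where the median gene was at -1.51.

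Over the 3 p20 comparisons, which share the same 8 controls, the members differed in number called. EdgeR's quasi-likelihood test called 0 of 7 members in Dis3 cKO and 0 of 7 in Exosc10 cKO, where 7.37% of all genes (3.61% higher and 3.76% lower) and 7.45% (3.95% and 3.5%) were called. The unadjusted p was under 0.05 for 0 of the 7 in Dis3 cKO and for 3 in Exosc10 cKO, and DESeq2 called 0 and 1 (Slc7a6). In the dcKO 2 of 7 were higher (Slc7a6 and Slc7a5) and 1 lower (Slc7a11), with 53.7% of all genes called (26.6% and 27.1%). Directly between genotypes, 2 of 7 were higher and 1 lower in dcKO than in Dis3 cKO (51.5% of all genes called, 26% higher and 25.5% lower), and 1 higher and 1 lower than in Exosc10 cKO (49.2%, made up of 24.2% and 25%). Counts summed by title tag, which leaves 2 sums a group, kept Slc7a6 and Slc7a11 as called in dcKO and left Slc7a5 at adjusted p = 0.078.

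The adult RiboMinus calls rest on treating each oocyte as a replicate. With counts summed by title tag, edgeR called 0 genes in all, although 3577 genes, and 4 of the 8 members then tested, had an unadjusted p under 0.05. The members' log2 fold changes were close to those over oocytes: -1.70 for Slc7a8, -0.60 for Slc7a5, -0.44 for Slc7a11, -0.33 for Slc6a9 and 0.18 for Slc3a2. In controls, adult against p20, 2 of 10 members were called, both higher (19.1% of all genes, 8.69% higher and 10.4% lower), over oocytes, and 0 over the tag sums, where 2 had an unadjusted p under 0.05. With spike-in scaling 0 of the 10 were higher and 8 lower, where 72 of 17267 genes were higher and 14797 lower.

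Among other comparisons, 2 of 9 members were higher and 1 lower at MII than at GV in controls (58.5% of all genes called, 22.7% higher and 35.8% lower). The higher ones were Slc3a2 and Slc6a15, the latter chosen from knockout comparisons that used these controls. In Dis3 cKO 1 of 7 was higher and 3 lower (63.3%, made up of 24.8% and 38.5%). With spike-in scaling 0 of the 9 were higher and 8 lower in controls (58 of 17389 genes higher and 15217 lower). In Dis3 cKO 0 of the 7 were then higher and 6 lower (227 genes higher and 14311 lower). The difference of the knockout effect between stages was called for 1 of 7 at GV3h, above 0 (2.04% of all genes, 1.37% above and 0.667% below 0). At MII it was called for 2 of 7, both below 0 (13.2%, made up of 9.28% and 3.88%), and between adult and p20 for 2 of 8, both below 0 (9.32%, made up of 5.34% and 3.98%).

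Other amino acid transporters, from a list of 52 genes, moved in both directions. At GV 28 could be tested, of which 6 were higher and 3 lower in Dis3 cKO (32.1% called, against 21.9% of all genes), with a median log2 fold change of 0.10 against 0.04 over all genes. At GV3h 6 were higher and 5 lower (39.3% against 38.6%) and at MII 4 and 5 (32.1% against 42.1%). The directions at MII depended on the fit, with 9 higher and 1 lower under spike-in scaling and 0 higher and 5 lower with only the compared groups. In adult RiboMinus libraries 4 of 26 were higher and 6 lower (38.5% against 28.1%), and 1 and 9 under spike-in scaling. In the dcKO 8 of 25 were higher and 5 lower (52% against 53.7%), and 3 and 4 under spike-in scaling. Slc43a2 (LAT4), a carrier of large neutral amino acids, rose by 3.25 at GV (adjusted p = 1.57e-06), 4.19 at GV3h (adjusted p = 3e-09), 2.94 in adult GV (adjusted p = 0.000745) and 2.83 in dcKO (adjusted p = 1.24e-05), by edgeR's quasi-likelihood test. Slc7a2, which encodes CAT-2 and carries the same cationic amino acids as CAT-1, fell by 0.54 at GV (adjusted p = 0.00148), 0.66 at GV3h (adjusted p = 4.31e-05) and 0.53 at MII (adjusted p = 0.000794). Slc36a1, a proton-coupled carrier, fell by 2.02 at MII (adjusted p = 9.81e-05) and by 1.09 in adult GV (adjusted p = 6.76e-05).

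Genes of the amino acid response around ATF4, the factor translated when amino acids run short, were a list of 35 that left out the members. In Dis3 cKO 1 of 33 was higher and 3 lower at GV (12.1% called, against 21.9% of all genes), 4 and 7 at GV3h (33.3% against 38.6%), and 5 and 6 at MII (33.3% against 42.1%), with medians of -0.07, 0.19 and -0.00 against 0.04, 0.07 and 0.16 over all genes. In adult RiboMinus libraries 2 of 32 were higher and 4 lower (18.8% against 28.1%), and in the dcKO 10 were higher and 5 lower (46.9% against 53.7%). With spike-in scaling the ATF4 list had 10 higher and 1 lower at MII, 0 higher and 14 lower in adult GV, and 4 higher and 4 lower in the dcKO. Eif2ak3, the kinase PERK of the endoplasmic reticulum, rose by 2.53 in dcKO (adjusted p = 1.68e-09) and Chac1, which degrades glutathione, by 1.16 (adjusted p = 0.000227). Eif2ak4, the kinase GCN2 that senses uncharged tRNA, fell by 1.06 in dcKO (adjusted p = 1.7e-10) and by 0.48 in adult Dis3 cKO (adjusted p = 0.000985). At MII Atf4 itself rose by 0.93 (adjusted p = 0.00116) and Phgdh, the first enzyme of serine synthesis, by 1.35 (adjusted p = 1.27e-06), all by edgeR's quasi-likelihood test.

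Components of mTORC1 and of its amino acid sensors, a list of 37, gave 0 higher and 1 lower of 36 at GV (2.78% called, against 21.9% of all genes), 6 and 3 at GV3h (25% against 38.6%), and 9 and 8 at MII (47.2% against 42.1%). They gave 1 and 4 in adult GV (13.9% against 28.1%) and 14 and 4 in dcKO (50% against 53.7%). With spike-in scaling they gave 15 and 1 at MII, 0 and 22 in adult GV, and 5 and 4 in dcKO. Wdr24, of the GATOR2 complex that activates mTORC1, rose by 1.19 at MII (adjusted p = 8.79e-08) and by 1.17 in dcKO (adjusted p = 6.56e-07). Depdc5, of the opposing GATOR1 complex, fell by 0.94 in dcKO (adjusted p = 6.84e-07), by edgeR's quasi-likelihood test.

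By Pearson's r over the 12 group means of log2 CPM, compared across 14336 genes, Gda (guanine deaminase) came nearest to Slc7a1 with r = 0.982, then Ptprt with 0.974, Slc35a1 with 0.970, Ehd3 with 0.969 and Supt7l with 0.968. Gda averaged 308 CPM in control and 44.3 in Dis3 cKO at MII. The nearest to Slc6a15 were Tubal3 with 0.992, Dab2 with 0.988, Rab7 with 0.984, Gm10280 with 0.984 and Piwil1 with 0.978. Piwil1 averaged 44.9 CPM in p20 controls and 4.58 in dcKO. The 12 means come from the same libraries for every gene and from 2 assays, and the r values only describe likeness of pattern.

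The chromatin lists gave a readout that the choice of genes had not used. H3K27me3 is the repressive mark laid down by Polycomb, and each library's peaks had been called separately. RefSeq promoters were at hand for 7 of the 10 members. For Slc7a11 and Slc3a2 the only start listed lies inside the gene span, so any start nearer its 5′ end was not read. A gene was counted when a peak lay within 1000 bases of any of its listed starts, and 18.4 to 33.7% of 27025 genes had such an H3K27me3 peak, depending on the library. Slc38a2 had one in 11 of 12 libraries and Slc7a8 in 10 of 12. The libraries without one were adult controls, where Slc38a2 had a peak in 2 of 3 and Slc7a8 in 1 of 3. Adult control lists held 87394 to 202628 peaks and adult Dis3 cKO lists 224934 to 276316. With the narrower window from 250 bases before to 50 after the start, the totals of Slc38a2 and Slc7a8 fell to 5 and 3 of 12, where 11 to 20.9% of all genes had a peak. Slc7a1, Slc3a2 and Slc6a9 had one in 1 of 12 each, and Slc7a6 and Slc7a11 in 0 of 12. With 3 libraries a group no exact test could pass 0.05, and none was made. The Slc38a2 promoter, chr15:96699679-96699978 on the minus strand, is shown with CG dinucleotides in capitals because it had a peak within 1000 bases in 11 of 12 libraries.
Slc38a2 start: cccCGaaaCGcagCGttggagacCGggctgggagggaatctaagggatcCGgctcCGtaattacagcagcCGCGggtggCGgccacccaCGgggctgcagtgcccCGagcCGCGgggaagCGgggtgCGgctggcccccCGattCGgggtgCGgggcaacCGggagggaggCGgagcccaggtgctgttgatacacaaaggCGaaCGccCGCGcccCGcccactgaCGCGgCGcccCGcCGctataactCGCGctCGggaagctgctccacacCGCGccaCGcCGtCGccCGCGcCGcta
It was 73.0% G or C and held 41 CG dinucleotides, and the Slc7a8 promoter at chr14:54781837-54782136 was 58.0% with 20.

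By their titles the polymerase lists are of a phosphorylated form, so a missing peak does not show that polymerase was absent. RNA polymerase II peaks, for which 2.88 to 14.6% of genes had one at the promoter, showed other members. Slc6a9 had one in 7 of 9 libraries, which were 1 of 3 in adult controls, 3 of 3 in adult Dis3 cKO and 3 of 3 in p20 controls. Slc7a6 had one in 3 of 9, Slc7a1 and Slc3a2 in 2, Slc7a11 in 1, and Slc38a2 and Slc7a8 in 0 of 9. The 2 at Slc3a2 were both in adult Dis3 cKO. With the narrower window Slc6a9 had a polymerase peak in 5 of 9, Slc7a6, Slc7a1 and Slc3a2 in 1 each and Slc7a11 in 0. In that window 1.45 to 6.47% of genes had one. With peaks above the median signal of their list Slc6a9 had one in 6, Slc7a1 in 2, Slc3a2 in 1, and Slc7a6 and Slc7a11 in 0. Lists differed in length from 19697 to 122606 peaks, so a count of libraries follows the length of the list as well.

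**Figure D4:**
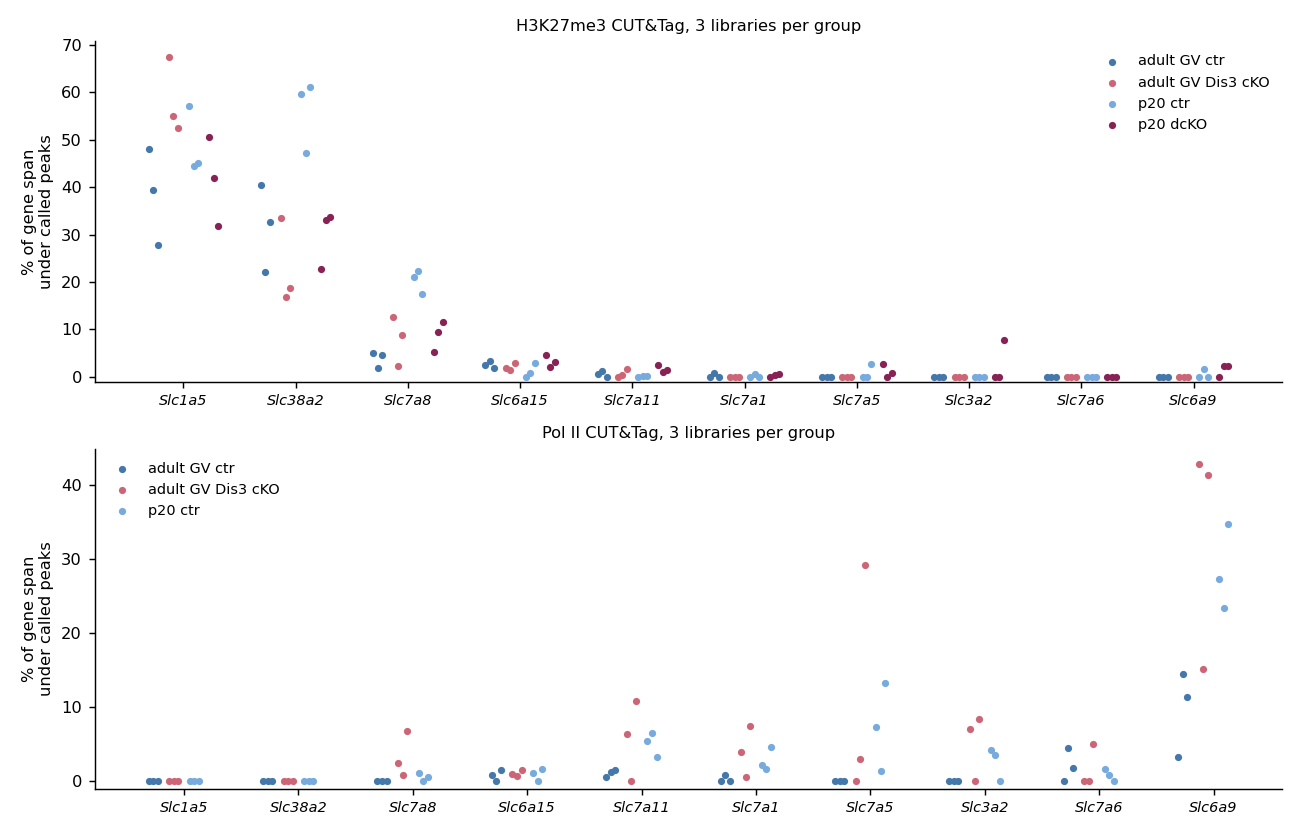
Share of each member's gene span that lies under H3K27me3 or RNA polymerase II peaks (percent, vertical axis), with 1 point per CUT&Tag library and 3 libraries a group. Slc1a5 and Slc38a2 have the highest H3K27me3 cover and no polymerase cover, and Slc6a9 has the highest polymerase cover.

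The share of the gene span under peaks, a measure added after the data were seen, included the 3 members with no promoter entry. H3K27me3 peaks covered 27.9 to 67.4% of Slc1a5 over the 12 libraries with a median of 46.5%, at or above 90.9 to 97.4% of 21900 protein-coding genes. Slc38a2 was covered over 16.8 to 61.2% of its span and Slc7a8 over 1.95 to 22.4%, whereas no other member went above 7.78%. The mean over all genes was 5.66 to 10.5%. Slc1a5 and Slc38a2 were thus the members with the most H3K27me3 cover, and whether this bears on their low counts was not tested.

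RNA polymerase II peaks covered 3.22 to 42.7% of Slc6a9 with a median of 23.3%, at or above 90.1 to 98.9% of genes, against a mean over all genes of 1.15 to 6.14%. Peaks in the stretch that Slc6a9 shares with Ccdc24 count toward its cover, and the genes cannot be told apart there. Slc1a5 and Slc38a2 had 0% in 9 of 9 libraries. Slc7a1, with a 6.42-fold difference in RNA between adult genotypes, had 0, 0.91 and 0% of its span under polymerase peaks in the 3 adult control libraries, 3.95, 0.58 and 7.48% in the 3 of adult Dis3 cKO, and 2.21, 1.64 and 4.67% in the p20 controls. The mean over all genes in the same libraries was 1.15 to 2.16%, 1.91 to 6.14% and 4.22 to 4.53%. Under H3K27me3 peaks Slc7a1 had 0 to 0.77% over the 12 libraries.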

How the data were processed

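The authors deposited raw read counts per gene for each single-oocyte library and CUT&Tag peak lists with a signal value per peak. Per the submitters' processing notes, reads were handled with cutadapt 2.5, FastQC 0.11.8, STAR 2.7.2a, SAMtools 1.9 and HTSeq 0.9.1 on mm10, and SEACR, R 3.5.1 and DESeq2 1.24.0 are also named. Strand use and the annotation release are not given in the sources used here. Per the labels, CUT&Tag reads were sampled to an equal number per library without deduplication, and the peaks' deposited signal was used only to rank peaks within a list.

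Counts of the 119 libraries (no 2 libraries were identical, and 99.7% and 99.4% of gene identifiers had a symbol) were tested in edgeR 4.0.16 under R 4.3.3: TMM scaling, filterByExpr, quasi-likelihood test, Benjamini-Hochberg over all genes tested, threshold 0.05. CPM use the TMM-scaled library size. Fits held all 6 poly(A) groups, both adult RiboMinus groups, the 4 p20 groups, or all 6 RiboMinus groups for adult against p20. Alternatives were DESeq2 1.42.0 and its size factors, spike-in (ERCC) scaling, no filter, only the compared groups, a replicate block, counts summed per title tag, and leaving out each library of a knockout comparison. Exon lengths were not at hand, so levels are not compared between genes.

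The members and gene lists were chosen with earlier results of these data known. The text names the 10 members, from the lists at most the 3 genes with the smallest adjusted p in each direction per comparison, and the 5 genes most like Slc7a1 or Slc6a15. Sequences are from RefSeq (GRCm38.p6), which matched 7 of the 10 members. Motifs were searched on both strands.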

Additional observations from a re-analysis of the deposited data

Results flagged for a closer look

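Single oocytes stood apart from the other 7 of their group in 14 of the 90 groups of 8 examined over the 10 members, where chance alone flags about 5% of groups. That rate does not hold for Slc38a2 and Slc1a5, which account for 7 of the 14, because in a group nearly all at 0 a single library with reads stands apart whatever its level. Slc7a11 reached 605 CPM in GV control 1 against a group median of 425.0. Slc7a5 reached 22.8 CPM in GV control 7 against 12.9. Slc6a9 was at 108 CPM in GV control 2 against 165, and Slc6a15 at 33.4 CPM in the fourth p20 control of tag 2 against 69.5. Slc7a6 stood high in GV control 6 (9.14 CPM against 4.55), in that same p20 control (5.42 against 1.56) and in the fourth adult Dis3 cKO oocyte tagged AM1713 (4.73 against 2.14). The other 7 were those of the genes near 0. Slc38a2 was at 3.57 CPM in GV control 2, 0.208 in GV3h control 6, 7.09 in MII control 3 and 1.43 in the fourth adult Dis3 cKO oocyte tagged AM1757, where medians were 0.379, 0, 0 and 0.130. Slc1a5 was at 0.997 CPM in GV3h control 4, 0.124 in MII control 1 and 0.919 in the second p20 Dis3 cKO oocyte of tag 1, with medians of 0.

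The knockout effect itself differed between stages or ages, by the interaction term of edgeR's quasi-likelihood test, for 3 members. Slc7a6 differed by 1.77 between GV3h and GV (adjusted p = 0.0309), a call that each of the other settings run for it kept. Slc7a5 differed by -0.95 between MII and GV (adjusted p = 0.026) and by -0.53 between adult and p20 Dis3 cKO (adjusted p = 0.0263). Slc7a11 differed by -0.45 between MII and GV (adjusted p = 0.0486) and by -0.51 between adult and p20 (adjusted p = 0.042). The MII calls of both genes were lost with spike-in scaling and with only the compared groups in the fit, and that of Slc7a11 also with no filter on low counts. Their adult calls were lost with spike-in scaling, with no filter and with counts summed by title tag.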

How the results depend on the processing

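Spike-in (ERCC) scaling turned 17 directions. It moved the median gene to -2.12 for MII against GV in controls, -1.51 in Dis3 cKO and -1.69 for adult against p20 controls. The median gene was at -0.52 in adult Dis3 cKO and at 0.68 in the MII against GV difference of the knockout effect. For MII against GV in controls it gave -1.12 for Slc7a1, -1.33 for Slc7a5, -1.81 for Slc7a8, -1.71 for Slc7a11, -1.04 for Slc3a2 and -0.98 for Slc6a15. In Dis3 cKO it gave -1.16 for Slc7a6, -0.31 for Slc3a2 and -0.58 for Slc6a15. For adult against p20 controls it gave -1.51 for Slc7a1, -1.49 for Slc7a5, -1.35 for Slc3a2, -1.28 for Slc6a9 and -1.45 for Slc6a15. It also turned Slc3a2 in adult Dis3 cKO (-0.30) and the MII against GV difference of the knockout effect for Slc7a11 (0.20) and Slc6a15 (0.40). The share of called genes that were higher went from 62.0 to 35.3% at GV, from 64.8 to 89.7% at MII, from 55.9 to 10.2% in adult GV and from 49 to 12.8% in p20 Dis3 cKO. It went from 38.8 to 0.380% for MII against GV in controls, 39.2 to 1.56% in Dis3 cKO, 45.6 to 0.484% for adult against p20, 42.3 to 55.9% for GV3h against GV, 50.5 to 73.1% for dcKO against Dis3 cKO, and 67.3 to 90.0% and 70.5 to 97.7% for the knockout differences at GV3h and MII. Members called came to 1 of 7 at GV (3582 of 17389 genes) and 0 of 9 for GV3h against GV. At MII it was 1 of 7 (Slc3a2, higher, in place of 3 lower calls, with 7284 of 17389 genes). For MII against GV it was 8 of 9 in controls and 6 of 7 in Dis3 cKO, and for adult against p20 8 of 10, all of them lower. The MII difference had 1 of 7 (Slc3a2, above 0, in place of 2 below) and the adult difference 0 of 8. It was 1 of 7 for dcKO against Exosc10 cKO. Genes called came to 118 for GV3h against GV, 15275 for MII against GV, 14869 for adult against p20, 5237 and 583 for the MII and adult differences, 6843 in adult GV, 364 in Exosc10 cKO and 5015 for dcKO against Exosc10 cKO. Of the ATF4 list 14 were called in adult GV and 8 in dcKO, of the mTORC1 list 22 and 9, and of the other transporters 7 in dcKO.

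Sums per title tag called 0 of 20190 genes, 0 of 8 members and 0 of each list in adult GV. They called 286 genes in p20 Dis3 cKO and 174 in Exosc10 cKO. For adult against p20 they called 237 of 22815 genes and 0 of 10 members, and for the adult difference 70 of 22815 and 0 of 8. For dcKO against Dis3 cKO they called 5953 of 20911 genes and 1 of 8 members. In dcKO they called 9 of the ATF4 list and 8 of the other transporters. With only the compared groups in the fit, 1 of 6 members was called at GV (4119 of 15099 genes). It was 4 of 8 for GV3h against GV (2083 of 13785 genes) and 2 of 6 for MII against GV in Dis3 cKO (9160 of 14292). For the GV3h and MII differences it was 2 of 6 and 0 of 7 (841 of 16737 and 1408 of 16367 genes). In p20 Dis3 cKO it was 1 of 6 (1566 of 13965 genes) and in dcKO 5 of 6 (8219 of 14239). At MII this fit called 4336 of 14166 genes, 6 of the ATF4 list and 5 of the other transporters. DESeq2 called 1 of 7 members at GV (4183 of 17389 genes) and 5 of 9 for MII against GV in controls (10404 of 17389). In Exosc10 cKO it called 1 of 7 members (1529 of 15882 genes). It also called 545 genes for the GV3h difference and 11 of the mTORC1 list in adult GV. No filter left 1 of 8 members for the MII difference (2168 of 40237 genes) and 0 of 8 for the adult difference (1789 of 38462). It left 14 of the other transporters at MII. Leaving out 1 library gave 0 to 1 member at GV and in Exosc10 cKO, where 3378 to 3851 and 913 to 1341 genes were called. This was run for the knockout comparisons only. The cause of these moves was not tested.

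Correlations of same-numbered knockout and control libraries were over 0.1 in 2 of 8 pairs at GV (-0.13 to 0.18), 0 of 8 at GV3h, 0 of 8 at MII and 4 of 48 at p20 (-0.23 to 0.28), not in every pair, so the numbers were not taken to pair oocytes. With a replicate block, 3175 of 12979 genes and 1 of 6 members were called at MII. So were 4 of the ATF4 list, 8 of the mTORC1 list and 5 of the other transporters. In Exosc10 cKO 1 of 7 members was called with the block (1106 of 15882 genes). With the block Slc7a5 at MII gave -0.87 (adjusted p = 0.128) and Slc7a8 -1.15 (adjusted p = 0.17), while Slc7a5 at GV3h passed with -0.56 (adjusted p = 0.00941).

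With the window from 250 bases before to 50 after the start, members with an H3K27me3 peak in at least 2 of 3 libraries were 1 in adult Dis3 cKO, 0 in adult controls, 1 in p20 controls and 0 in dcKO, and with a polymerase peak 1 in adult Dis3 cKO. With peaks above the median signal of their list they were 1 for H3K27me3 in dcKO and 1 for polymerase in adult Dis3 cKO. Low counts limit Slc38a2, Slc1a5, Slc7a6 and, in the poly(A) set, Slc7a8.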
